A study of Mus musculus with 4 samples.

Results

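The 126 genes described here encode cytokines, chemokines and their receptors. They were taken by symbol from the probe sets that name a single gene: symbols that begin with Ccl, Ccr, Cxcl, Cxcr or Il followed by a digit, together with Tnf, Tgfb1, Tgfb2, Tgfb3, Lif, Ifng and Cx3cl1. They make up 126 of the 18193 genes measured by at least 1 such probe set, and each gene stands for its brightest probe set among 200 in all, by the mean of 4 arrays. The rule itself uses names and levels, not the knockout minus wild-type difference. The rule also took the enzyme gene Il4i1 and the long noncoding RNA Il1bos, which encode neither a cytokine nor a receptor.

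Brain RNA came from 2 Bcas1 knockout mice (Bcas1 -/-) and 2 wild-type mice (+/+), all males of 8 to 9 weeks on the C57BL/6 background, bred from heterozygous parents. The labels name the tissue as brain, and the sample descriptions add cerebrum. Each mouse had its own Affymetrix array. The Bcas1 protein belongs to oligodendrocytes that are forming myelin, and the arrays ask what its loss does to brain RNA. The labels used here do not say how the allele was made or whether the mice were littermates. All levels below are RMA values on a log2 scale, so a difference of 1 is a doubling, and no detection calls accompanied them.

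Cytokines and chemokines are secreted or membrane-bound signals that immune cells, glia and neurons exchange through surface receptors. Interleukins and related cytokines act mostly through receptors coupled to JAK-STAT or MyD88 signalling, whereas chemokines act on G protein-coupled receptors and direct cell migration. In the healthy brain most inflammatory members are near silent, while a few, such as Cx3cl1 from neurons and Il34, the neuronal ligand of the microglial receptor Csf1r, are made at rest and sustain microglia.

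Promoters of 6 members are shown here, taken from both sides of the array median by their brightest probe sets. Each is the stretch of 120 bases that ends just before the RefSeq transcription start, read 5′ to 3′ on the strand of the gene, from RefSeq on GRCm38.p6. Capitals mark TATAAA on that strand, or a match to the NF-kappaB consensus on either strand. Cx3cl1 (chr8:94772060-94772179, plus strand), Cxcl12 (chr6:117168415-117168534, plus strand) and Cxcl1 (chr5:90891125-90891244, plus strand) lay above the array median. Tnf (chr17:35202008-35202127, minus strand), Il1a (chr2:129309973-129310092, minus strand) and Il6 (chr5:30012994-30013113, plus strand) lay below it.
Cx3cl1: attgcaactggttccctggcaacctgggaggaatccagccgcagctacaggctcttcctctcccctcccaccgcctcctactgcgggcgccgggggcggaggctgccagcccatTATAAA
Cxcl12: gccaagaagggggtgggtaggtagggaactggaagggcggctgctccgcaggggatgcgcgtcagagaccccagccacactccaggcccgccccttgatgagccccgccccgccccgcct
Cxcl1: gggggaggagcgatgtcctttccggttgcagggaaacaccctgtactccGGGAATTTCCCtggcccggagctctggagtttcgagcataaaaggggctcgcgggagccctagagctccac
Tnf: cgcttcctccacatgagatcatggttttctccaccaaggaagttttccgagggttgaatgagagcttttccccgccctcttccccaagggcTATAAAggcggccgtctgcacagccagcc
Il1a: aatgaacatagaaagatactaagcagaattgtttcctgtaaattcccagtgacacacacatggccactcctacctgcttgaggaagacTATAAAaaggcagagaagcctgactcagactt
Il6: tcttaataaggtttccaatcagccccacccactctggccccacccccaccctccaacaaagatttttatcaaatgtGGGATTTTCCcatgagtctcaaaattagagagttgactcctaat
The Tnf and Il1a stretches carry TATAAA 29 and 32 bases before the start. In Cx3cl1 these letters directly adjoin the start, 6 bases before it, and were not counted as a TATA box. The matches in capitals in Cxcl1 and Il6 are NF-kappaB consensus letters. A match is a property of the letters and was not tested as a binding site.

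The second knockout array stood apart from the other 3 in markers of another tissue. The 4 nasal mucosa markers averaged 4.56 and 7.73 in the knockout mice, against 4.66 and 4.97 in the wild-type mice. Obp1a, an odorant-binding protein of the nose, measured 3.46 and 8.92 in the knockout mice against 3.41 and 4.15 in the wild-type mice. Bpifa1 and Cyp2g1 were also high on the second knockout array, at 8.33 and 7.12. The other listed marker, Omp, hardly differed, with 6.17 and 6.56 in knockout against 6.42 and 6.41 in wild type. Neutrophil markers were higher in both knockout mice than in both wild-type mice for 6 of 7 genes, beside 15.5% of all genes. Their list means were 5.93 and 6.25 in knockout and 5.61 and 5.55 in wild type. The differences were uneven, largest in S100a9 (1.295) and S100a8 (1.17) and smallest in Ltf (0.095) and Elane (0.005). The 6 measured microglia markers averaged 8.35 and 8.39 in knockout and 8.38 and 8.43 in wild type, and the neuron markers that define brain averaged 12.36 and 12.29 in knockout and 12.34 and 12.35 in wild type. The brightest Bcas1 probe set measured 11.05 and 10.75 in knockout against 12.17 and 12.21 in wild type, a difference of -1.29 (SE 0.12, limma adjusted p of 0.742), while 2 dim Bcas1 probe sets differed by 0.64 and 0.765. The labels used here do not say which part of Bcas1 was disrupted, or whether these probe sets read it, so the values do not check the genotypes. None of the 62 measured marker genes passed the threshold, and the part of these markers in the values below was not tested.

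Most cytokine and chemokine genes were dim in the brain. Of the 126 members, 31 (24.6%) lay above the array median of 6.50, against 63.9% of all 18193 genes, and 29 of them did so on every array. Only 7 members exceeded the upper quartile of 8.49, namely Cx3cl1, Ccl27a, Il33, Il18, Il6st, Cxcl12 and Cxcl14. At the other end 48 members (38.1%) lay below the lower quartile of 4.89, against 17.0% of all genes. Il1f10, at a mean of 6.57, was the member just above the median, and Il17rd, at 6.42, the one just below it. The count of bright members depended on the representation, with 20 when all probe sets of a gene were averaged.

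No member passed the threshold between the genotypes. With limma, 0 of the 126 members had an adjusted p under 0.05 (each was at 1), and neither did any of the 200 probe sets behind them, beside 2 of 45037 probe sets (0.00444%) over the whole table. At an unadjusted p under 0.05 there were 4 members (3.17%), Il1a, Tnf, Il22ra1 and Ccl12, against 2.75% of all genes. The median knockout minus wild-type difference was 0.01 over the members and 0.005 over all genes, with members between -0.325 (Ccl17) and 0.39 (Cxcr4). The 95% limma interval of the difference stayed within 1.5-fold either way for 114 members, including all 31 bright ones, and within 2-fold for all 126. RNA came from mixed brain tissue, so fewer cells of a type and less RNA per cell cannot be told apart in any of these values.

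**Figure D1:**
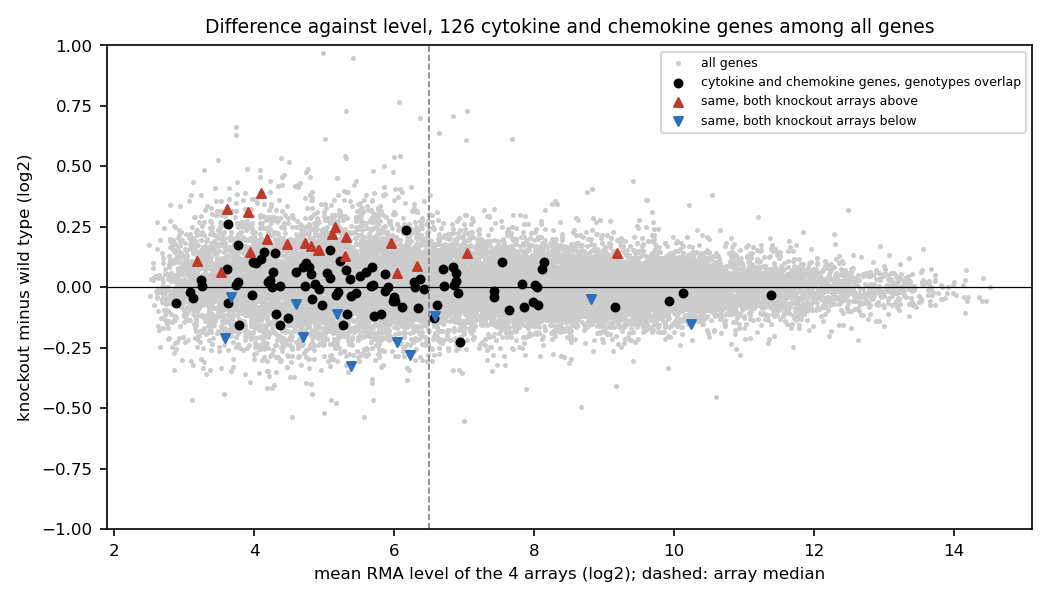
Knockout minus wild-type difference (log2) against mean RMA level (log2) for 126 cytokine and chemokine genes (large symbols) over all 18193 genes (grey); triangles mark members whose genotypes do not overlap, and the dashed line is the array median. The 31 members right of the line lie between -0.225 and 0.14, and 15 genes of the whole array fall outside the plotted range of 1 either way.

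Both knockout arrays lay above both wild-type arrays in 21 members (16.7%), against 15.5% of all genes, and below them in 11 members (8.73%), against 12.8%. Together 32 members (25.4%) did not overlap, against 28.3% of all genes, a share near the background. Among the 31 bright members the counts were 2 higher (6.45%), against 14.9% of genes above the median, and 3 lower (9.68%), against 13.7%. Of the 95 dim members, 19 (20%) were higher, by 0.06 to 0.39, against 16.6% of genes at or below the median, and 8 (8.42%) lower, by 0.04 to 0.325, against 11.2%. With 2 arrays a side the smallest two-sided p of an exact permutation test is 0.33, so these counts stand as a description.

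The bright chemokines differed little between genotypes. Cx3cl1, the membrane-tethered neuronal ligand of the microglial receptor Cx3cr1, measured 11.27 and 11.47 in knockout and 11.33 and 11.47 in wild type (11.37 ± 0.14 against 11.40 ± 0.099, SD, n = 2 each), a difference of -0.03 (SE 0.10). The second mouse of each genotype was the higher, at the same level, so the groups overlapped on this probe set. Its dimmer probe sets differed by 0.02 with overlap, and by -0.105 and -0.125 with both knockout values lower. Cxcl12, which acts on Cxcr4 to guide migrating cells, measured 9.06 and 9.18 in knockout against 9.18 and 9.22 in wild type, a difference of -0.08 (SE 0.080). Cxcl14, a chemokine of interneurons and epithelia, measured 8.79 and 8.80 in knockout against 8.84 and 8.85 in wild type, so both knockout values were lower, by 0.05 with an SE of 0.068. Cxcl16, the ligand of Cxcr6, and Cxcl1, a neutrophil attractant, overlapped between genotypes at -0.015 and -0.095. Cxcl17, a mucosal chemokine, read 6.34 and 6.82 in knockout and 6.68 and 6.63 in wild type, with both extremes in the knockout.

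Among the CC chemokines, 4 of 18 lay above the median. Ccl27a, a skin-homing chemokine, measured 10.20 and 10.13 in knockout against 10.27 and 10.36 in wild type, a difference of -0.15 (SE 0.078) with no overlap. Its probe set may read near-identical copies, since 2 further probe sets named the same family of 5 genes, at differences of -0.05 and -0.065. Ccl25, which attracts gut-homing lymphocytes and thymocytes through Ccr9, measured 7.06 and 7.18 in knockout against 6.93 and 7.03 in wild type, a difference of 0.14 (SE 0.085), which was 0.08 without the second knockout array. Ccl28, a mucosal chemokine, had the largest difference of the bright members, -0.225 (SE 0.13), with 6.90 and 6.75 in knockout against 6.90 and 7.20 in wild type. The second wild-type mouse alone was high, and another Ccl28 probe set differed by 0.19. Ccl24, an eosinophil attractant, differed by 0.005.

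**Figure D2:**
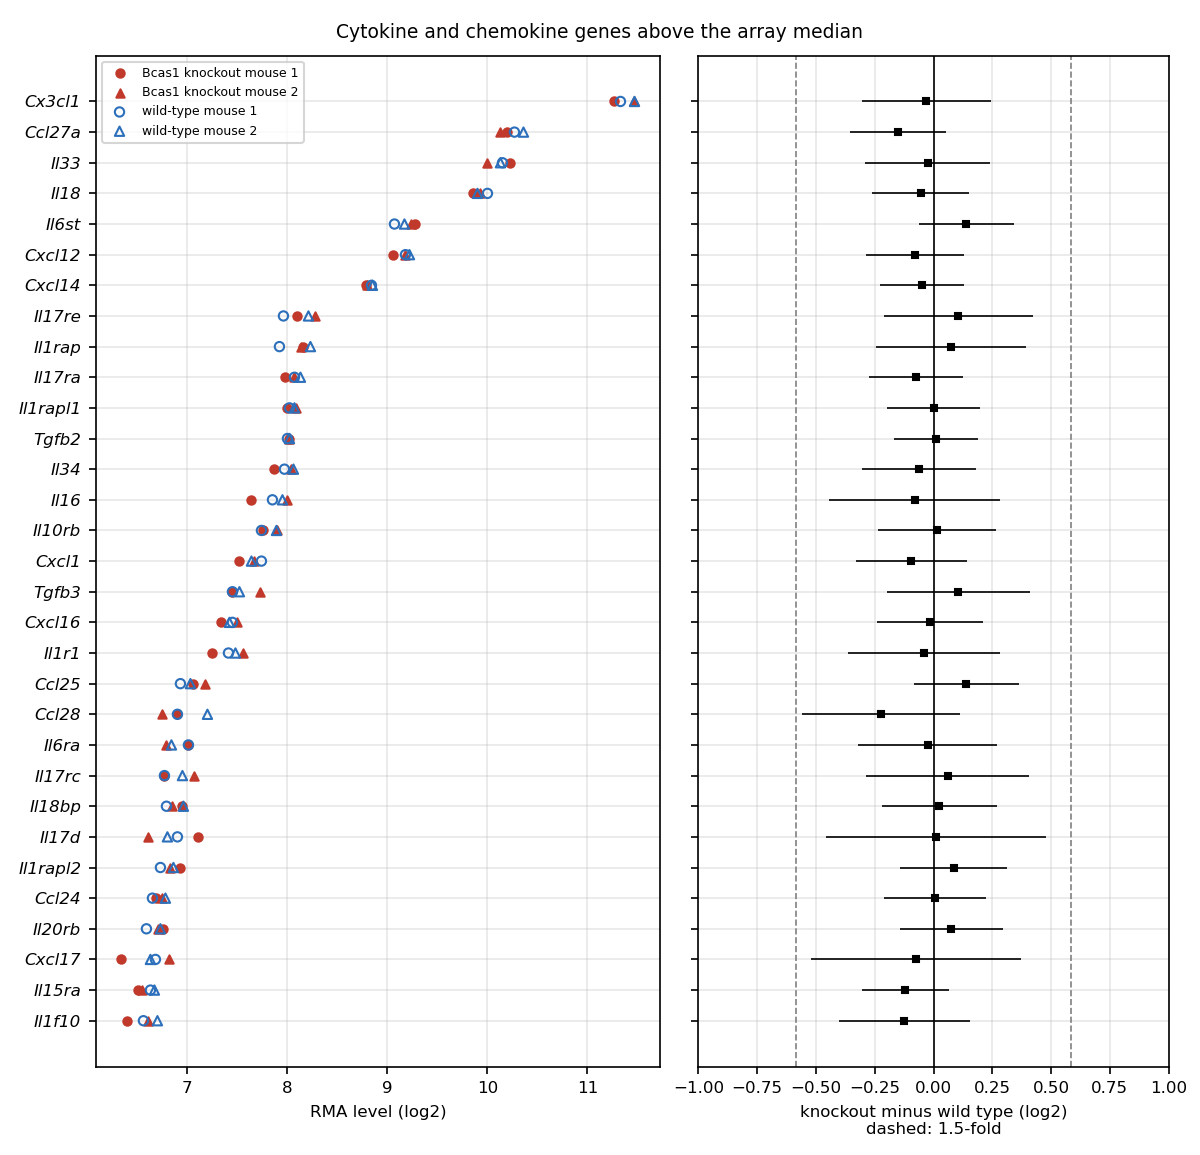
Left, RMA level (log2) of the 31 members above the array median in each of the 4 mice (filled, knockout; open, wild type); right, knockout minus wild-type difference (log2) with its 95% limma interval, dashed lines at 1.5-fold. All intervals include 0, and Ccl28 at -0.225 lies farthest from it.

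The dim CC chemokines included the most negative differences of all members. Ccl17, a ligand of Ccr4, measured 5.35 and 5.11 in knockout against 5.68 and 5.43 in wild type, a difference of -0.325 (SE 0.13). Its neighbour Ccl22, the other Ccr4 ligand, also on chromosome 8, lay the other way, at 5.27 and 5.57 in knockout against 5.23 and 5.19 in wild type, a difference of 0.21 (SE 0.12). Without the second knockout array Ccl22 differed by 0.06 and Ccl17 by -0.205. Ccl6 and Ccl9, mouse macrophage chemokines of the chromosome 11 cluster, differed by -0.28 (SE 0.16) and -0.225 (SE 0.12). Their dimmer probe sets differed by -0.005 and -0.06, both with overlap. In Ccl6 the first knockout mouse stood apart, with 5.87 and 6.31 in knockout against 6.36 and 6.38 in wild type, and without that mouse the difference was -0.06. Ccl9 measured 5.79 and 6.07 in knockout against 6.11 and 6.20 in wild type, and without the first knockout mouse its difference was -0.085. Ccl12, a mouse monocyte attractant, measured 4.63 and 4.58 in knockout against 4.79 and 4.83 in wild type, a difference of -0.205 (SE 0.071). In all, 5 of the 18 CC chemokines were lower without overlap and 2 higher, beside 12.8% and 15.5% of all genes, with a median of -0.065. Ccl2, the main monocyte attractant, differed by -0.075 and Ccl5, a T cell attractant, by 0.065, both with overlap.

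Of the CXC chemokines below the median, Cxcl10, an interferon-induced ligand of Cxcr3, measured 4.80 and 4.84 in knockout against 4.61 and 4.66 in wild type, a difference of 0.185 (SE 0.071). The other interferon-induced ligands of that receptor, Cxcl9 and Cxcl11, differed by 0.075 and -0.035. Over the 14 CXC and CX3C chemokines 3 differences were positive and 11 negative, with a median of -0.04. Over all 18193 genes 9404 were positive and 8287 negative. Without the first knockout array only Cxcl12 (-0.02), Cxcl14 (-0.045), Cxcl1 (-0.02) and Cxcl5 (-0.055) stayed negative, so the balance of signs depended on that array.

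The IL-1 family split between bright and dim ligands. Il33, a nuclear alarmin of glia, measured 10.23 and 10.00 in knockout against 10.15 and 10.13 in wild type, and Il18, an inflammasome-activated cytokine, 9.86 and 9.93 in knockout against 10.00 and 9.90 in wild type. Their differences of -0.025 (SE 0.10) and -0.055 (SE 0.079) were smaller than their SE. Il1a, an alarmin that signals through Il1r1, measured 3.70 and 3.86 in knockout against 3.47 and 3.44 in wild type, a difference of 0.325 (SE 0.086) at a limma unadjusted p of 0.0145 and adjusted p of 1. This level lies well below the lower quartile of the array. Il1b, processed by the same inflammasome as Il18, measured 5.18 and 5.14 in knockout against 5.17 and 5.21 in wild type, a difference of -0.03. Il1f9, which encodes IL-36 gamma, measured 5.16 and 5.41 in knockout against 5.01 and 5.06 in wild type, a difference of 0.25 (SE 0.11), which was 0.125 without the second knockout array. Il1f10, which encodes IL-38, differed by -0.125. Of the genes that encode inhibitors in this family, Il18bp, which binds IL-18, and Il1rn, the IL-1 receptor antagonist, differed by 0.025 and 0.04.

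Tnf, an early cytokine of inflammation, measured 5.20 and 5.25 in knockout against 5.03 and 4.98 in wild type. The difference of 0.22 (SE 0.072) had a 95% limma interval of 0.032 to 0.41 and an adjusted p of 1 over the table. The 2 mice of each genotype lay close together, and either knockout mouse alone gave 0.195 or 0.245. Lif, a ligand of the gp130 family, measured 4.88 and 4.92 in knockout against 4.69 and 4.77 in wild type, a difference of 0.17 (SE 0.074), while its other probe set differed by -0.005. Ifng, the T cell and NK cell interferon, measured 3.23 and 3.29 in knockout against 3.23 and 3.28 in wild type. Among the TGF-beta ligands, which hold microglia in a resting state, Tgfb2 measured 8.02 and 8.02 in knockout against 8.00 and 8.02 in wild type. Tgfb3 and Tgfb1 differed by 0.105 (SE 0.12) and -0.025, with overlap.

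Of the other 24 interleukins, 3 were bright. Il34 measured 7.87 and 8.04 in knockout against 7.97 and 8.06 in wild type, Il16, a CD4 ligand with a longer neuronal form, 7.64 and 8.00 in knockout against 7.85 and 7.95 in wild type, and Il17d, a member of the IL-17 family, differed by 0.01. The genotypes overlapped in all 3. Il6, an acute-phase cytokine, lay well below the lower quartile, at 3.07 and 3.09 in knockout against 3.04 and 3.16 in wild type. Il10, an anti-inflammatory cytokine, measured 3.68 and 4.03 in knockout against 3.65 and 3.71 in wild type, with the second knockout mouse alone high. Il2, the T cell growth factor, measured 3.39 and 3.56 in knockout against 3.72 and 3.65 in wild type, a difference of -0.21 (SE 0.091), which was -0.125 without the first knockout mouse, and Il23a, a subunit of IL-23, differed by -0.07 without overlap.

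**Figure D3:**
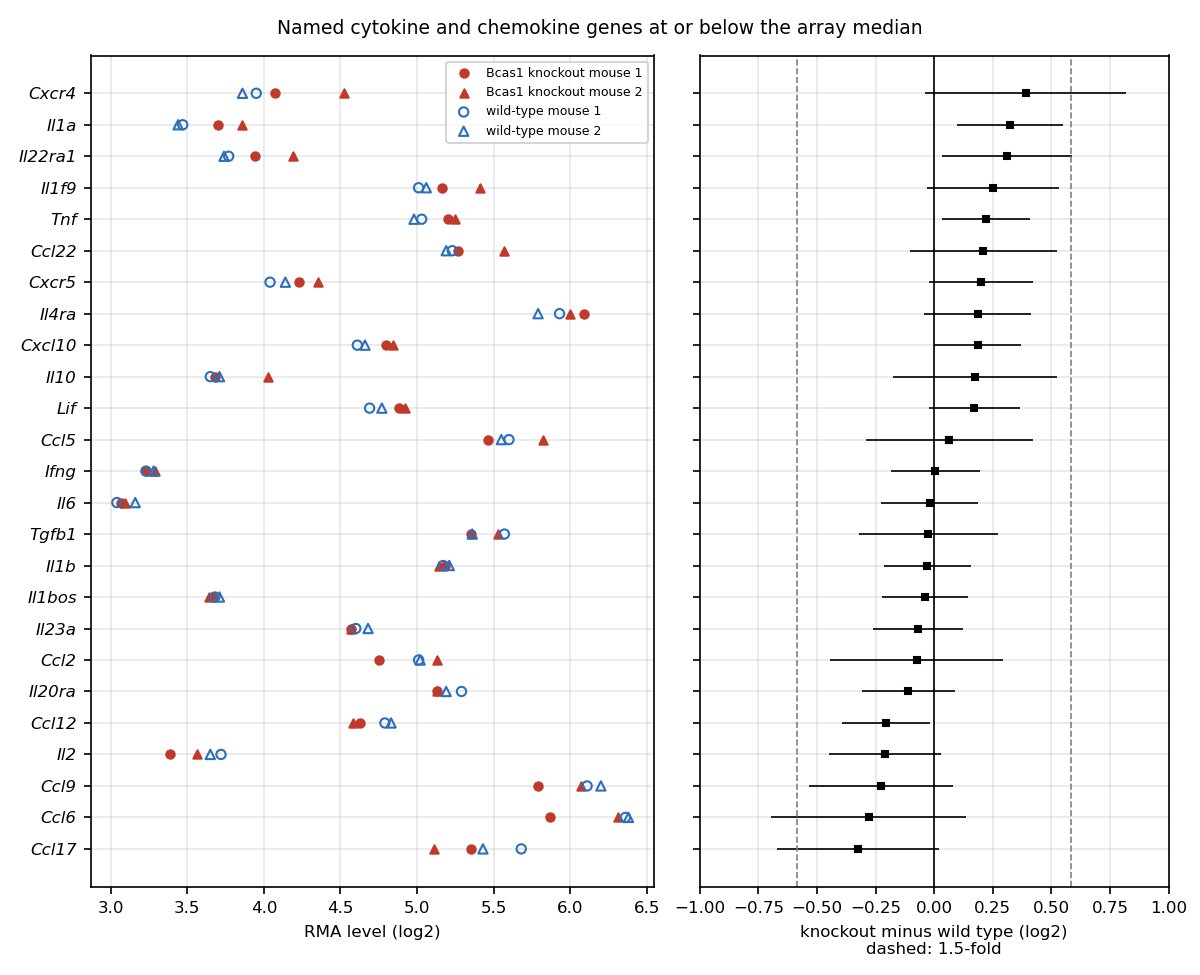
Left, RMA level (log2) in each of the 4 mice for 25 named members at or below the array median (filled, knockout; open, wild type); right, knockout minus wild-type difference (log2) with its 95% limma interval, dashed lines at 1.5-fold. Il1a, Il22ra1, Tnf and Ccl12 have intervals that leave out 0 before adjustment, and Cxcr4, at 0.39, is highest in the second knockout mouse.

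The receptors followed the same division. Il6st, which encodes gp130, the shared signalling chain of the IL-6 and LIF receptors, measured 9.28 and 9.24 in knockout against 9.07 and 9.17 in wild type. Its difference of 0.14 (SE 0.077) showed no overlap and was 0.09 without the first wild-type mouse. Il6ra, the chain that confers IL-6 binding, differed by -0.025. Il15ra, which presents IL-15, measured 6.51 and 6.55 in knockout against 6.63 and 6.67 in wild type, a difference of -0.12 (SE 0.071), which turned to 0.0275 when its probe sets were averaged. The bright IL-17 receptor chains Il17ra, Il17rc and Il17re differed by -0.075, 0.06 and 0.105, and the bright chains Il10rb and Il20rb, of the IL-10 family receptors, by 0.015 and 0.075, all with overlap.

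Of the 8 receptors of the IL-1 family, 4 were bright. Il1r1, the signalling IL-1 receptor, and Il1rap, its accessory chain, differed by -0.04 and 0.075. Il1rapl1, a synaptic organiser of this family, measured 8.00 and 8.09 in knockout against 8.02 and 8.07 in wild type. Its relative Il1rapl2 differed by 0.085. These 4 overlapped between genotypes.

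The dim interleukin receptors with the largest differences were Il22ra1, a chain of the IL-22 receptor of epithelia, and Il4ra, the IL-4 and IL-13 receptor chain. Il22ra1 measured 3.94 and 4.19 in knockout against 3.77 and 3.74 in wild type, a difference of 0.31 (SE 0.11), which was 0.185 without the second knockout array. Il4ra measured 6.09 and 6.00 in knockout against 5.93 and 5.79 in wild type, a difference of 0.185 (SE 0.087), which was 0.115 without the second wild-type mouse. Il20ra, the partner of Il20rb, lay lower, by 0.11. All 3 had a limma adjusted p of 1.

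None of the 15 chemokine receptors lay above the array median. Cxcr4, the Cxcl12 receptor of leukocytes and progenitors, measured 4.07 and 4.52 in knockout against 3.95 and 3.86 in wild type, a difference of 0.39 (SE 0.16). Without the second knockout array, which also carried the nasal mucosa signal, it was 0.165. Cxcr5, the B cell receptor of Cxcl13, differed by 0.20 (SE 0.085), and Cxcr2, the neutrophil receptor of Cxcl1, by 0.18 (SE 0.069), both without overlap. Those were 3 of the 15 receptors, beside 15.5% of all genes higher without overlap, and none was lower, beside 12.8%. Ccr3, an eosinophil receptor, read 3.39 and 4.12 in knockout against 3.50 and 3.49 in wild type, so 1 knockout mouse lay on each side of the wild-type pair. The neutrophil markers are given above, with 6 of 7 higher without overlap and 0 past the threshold. The 5 measured T cell markers averaged 5.91 and 6.00 in knockout and 5.97 and 6.00 in wild type. The 3 measured B cell markers averaged 4.98 and 5.02 in knockout and 5.05 and 5.08 in wild type.

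Mice of a genotype varied among themselves. The median absolute difference between the 2 knockout mice was 0.15 over the members, and 0.10 between the 2 wild-type mice. Over all genes these were 0.10 and 0.07, and over genes at or below the array median 0.14 and 0.11. The median absolute knockout minus wild-type difference was 0.075 over the members, 0.055 over all genes and 0.085 over genes at or below the array median. This difference sets means of 2 mice against each other and so varies less than a difference of single mice. The second knockout mouse was the highest of the 4 in 57 members (45.2%), against 37.7% of all genes. It was highest in 49.5% of dim members, against 41.2% of all genes at or below the array median. Among bright members the share was 32.3%, against 35.7% of all genes above it. The first knockout mouse was the lowest in 45 members (35.7%), against 34.2% of all genes. The largest gaps above the other 3 arrays included Ccr3 and Cxcl13, a B cell attractant that read 5.95 and 6.62 in knockout against 5.98 and 6.12 in wild type. The members' median difference was -0.035 without the second knockout mouse and 0.065 without the first, so its sign rested on the choice of mouse. Over all genes these medians were -0.015 and 0.03.

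**Figure D4:**
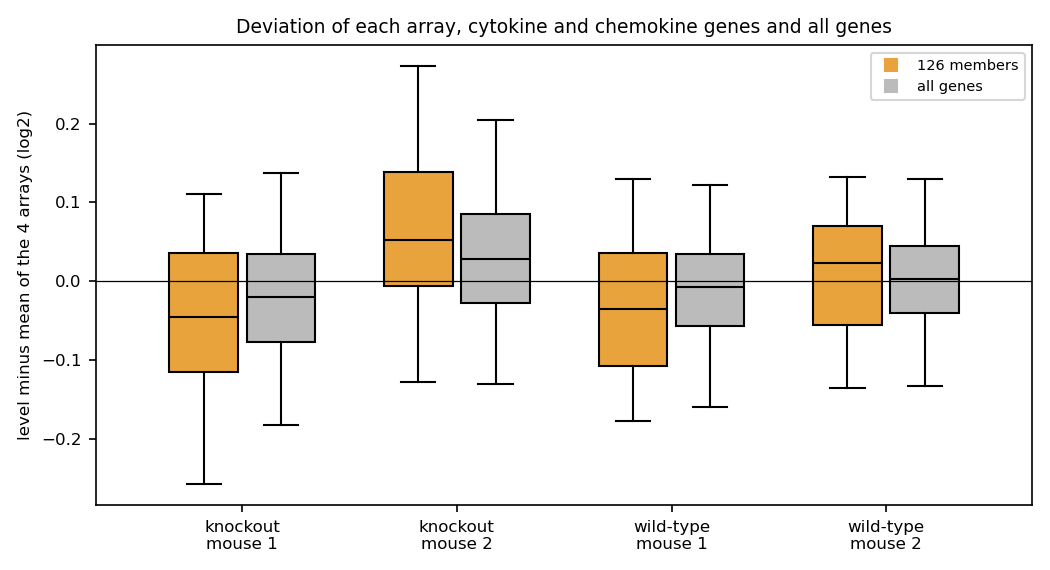
Level of each mouse minus the mean of the 4 arrays (log2), as boxes of the quartiles and median with whiskers at the 5th and 95th percentiles, for 126 cytokine and chemokine genes (orange) and all genes (grey). The second knockout mouse lies above 0 at its median and the first knockout mouse below, in the members and in all genes alike.

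Probe sets of the same gene often disagreed. Of the 47 members with more than 1 probe set, 19 had differences all of 1 sign and 28 did not, and 17 had probe sets on both sides of the array median. Cxcl13 gave 0.235 on its brighter probe set and -0.28 on its dimmer one. Cxcl1 read 7.52 and 7.67 in knockout and 7.74 and 7.64 in wild type on the brightest probe set, which has the suffix x. Its probe set without the suffix x or s read 3.73 and 3.85 in knockout and 3.74 and 3.72 in wild type. Of the 4 Tgfb2 probe sets, 2 were higher in both knockout mice, by 0.04 and 0.07, and 1 was lower, by 0.105. These examples were picked with their values known.

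Other genes of these pathways were measured for 80 of 91 listed, and none passed the threshold in limma. The median difference was 0.01 for 37 other receptors and ligands, 0.04 for 25 signal transducers and 0.05 for 18 target genes. Lta, which encodes lymphotoxin alpha beside Tnf, read 5.11 and 5.57 in knockout against 4.92 and 5.21 in wild type, with overlap, and Ccrl2, a chemerin-binding receptor, differed by 0.22 without overlap. Ifngr2, a chain of the interferon gamma receptor, differed by -0.145. The transducers with the largest differences were Stat4 at 0.285, Stat5a at 0.135 and the TNF receptor adaptor Traf2 at 0.13, each with overlap. The feedback inhibitors Socs3 and Socs1 differed by 0.20 and 0.13, and Nos2, the inducible nitric oxide synthase, by -0.25, all within overlapping genotypes. Cx3cr1, which binds Cx3cl1, measured 8.85 and 8.74 in knockout against 8.91 and 8.91 in wild type, a difference of -0.115 (SE 0.077). Csf1r, the receptor of Il34, differed by 0.005.

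The bright and dim chemokine ligands were also counted by chromosome. None of the 11 CC chemokines on chromosome 11 lay above the array median, whereas 4 of the 7 elsewhere did (Ccl27a on chromosome 4, Ccl24 on chromosome 5, Ccl25 on chromosome 8 and Ccl28 on chromosome 13). Of the 9 CXC chemokines on chromosome 5 only Cxcl1 lay above it, and all 5 CXC or CX3C chemokines elsewhere did (Cxcl12, Cxcl14, Cxcl16, Cxcl17 and Cx3cl1). These 2 clusters hold most inflammatory chemokines. Clustered genes are not independent of each other, so these counts carry no test.

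The promoters of the members were set beside those of all genes as a description, with no test. A RefSeq window of 300 bases, running from 250 before to 50 after the start, was matched for 96 members, 24 bright and 72 dim, and for 14368 genes in all. A gene with several starts was counted if any of them matched, and its CpG sites were averaged. TATAAA between 45 and 16 bases before the start, on the strand of the gene, was found in 15 members (15.6%), against 2.89% of all genes. It was found in 2 of the 24 bright members (8.33%), against 1.5% of all genes above the median, and in 13 of the 72 dim members (18.1%), against 5.51% of all genes at or below it. The NF-kappaB consensus on either strand was in 15.6% of the members, against 6.08% of all genes, and in 16.7% of bright and 15.3% of dim members. The median number of CpG sites in the window was 9.75 in bright members, against 21 in all bright genes, and 4 in dim members, against 6 in all dim genes. The shorter printed stretches of 120 bases held 8 CpG sites in Cxcl12 and 0 in Il1a and Il6. The windows of 300 bases held 20 in Cxcl12, 5 in Il1a and 3 in Il6.

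**Figure D5:**
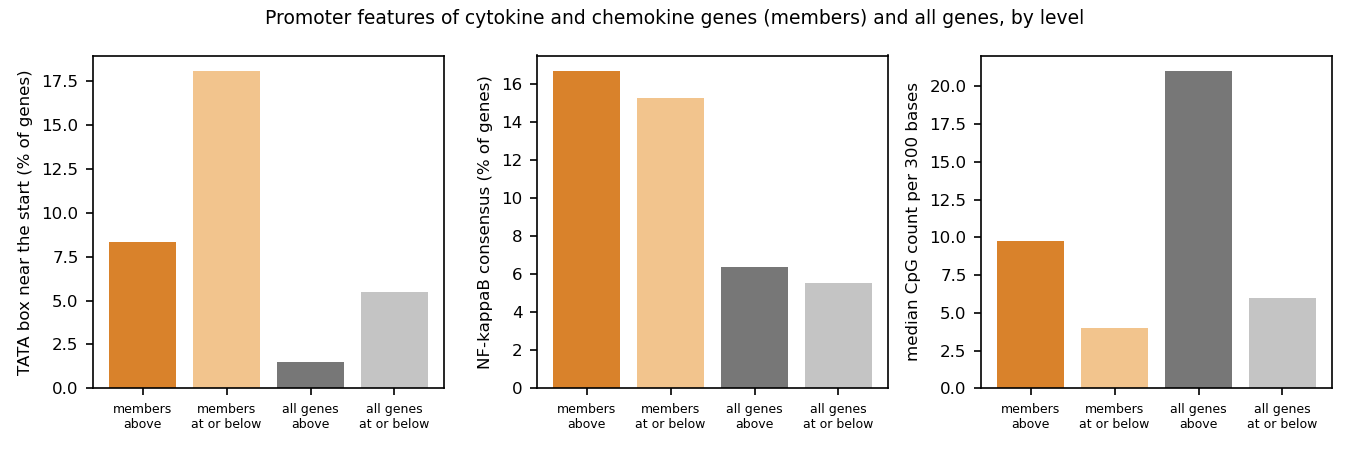
Share of genes (%) with TATAAA near the start, share (%) with the NF-kappaB consensus, and median CpG count per 300 bases, for cytokine and chemokine genes (orange, labelled members) and all genes (grey), above and at or below the array median. Dim members have the highest share with TATAAA, at 18.1%, and the fewest CpG sites, at a median of 4.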

How the data were processed

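Per the labels' protocols, brain RNA of each mouse was treated with DNase, amplified with a 3′ IVT kit and hybridised to a 1-colour Affymetrix array. The deposited log2 values were computed by the authors with RMA, per the submitters' processing notes, which corrects background, normalizes probes between arrays and summarises each probe set. No RMA version is given in the sources used here. RMA compresses differences of dim genes, and background correction could not be repeated. The number of arrays limits the precision.

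Of 45101 rows, 64 Affymetrix controls were left out and 45037 tested. The platform annotation gave 1 gene for 34945 probe sets, several for 932 and none for 9160, and those of 1 gene were used. All 126 members were found in the RefSeq table of GRCm38.p6, with 0 symbols changed. The array median is the mean of the 4 array medians. The genotypes were tested two-sided with lmFit and eBayes of limma 3.58.1 under R 4.3.3. P-values were adjusted by Benjamini-Hochberg across every tested probe set, with 0.05 as threshold. The fit had 2 residual and 2.74 prior degrees of freedom. The code was tested on simulated data.

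Named genes were every member above the array median, the 8 higher and 8 lower dim members with the largest differences and no overlap, 16 set members, and 3 genes per pathway or marker list. Others named were chosen after their values were seen. Members and lists were chosen with earlier results of these data known. Markers of border macrophages, endothelium, mural cells, astrocytes, oligodendrocytes, choroid plexus, meningeal fibroblasts and pituitary were also measured. Same-numbered mice were not taken as pairs: deviations correlated at r = 0.241 across probe sets, over only 2 pairs. Alternatives covered scaling, normalization, filtering, the variance model, a replicate block, the choice of probe set, the symbol rule and each array left out.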

Additional observations from a re-analysis of the deposited data

How the results depend on the processing

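No member and no pathway gene passed the threshold in limma under any of the alternatives, where the lowest adjusted p of a member was 0.573, reached without the first knockout array, and the whole table gave 0 to 10 calls. With the mouse number as a replicate block, 0 members were called, the lowest adjusted p of a member was 0.847, and 6 members had an unadjusted p under 0.05. The median difference of the members was 0.01 with the replicate block and 0 to 0.02 under the other settings that kept all arrays. Leaving out 1 array moved it between -0.035 and 0.065, changing its sign without the second knockout or the first wild-type array. The count of members with the genotypes not overlapping was 18 among the 78 left by a lower quartile filter (23.1%, against 28.2% of all genes left), 12 (7 higher and 5 lower) with differences of at least 0.2 (9.52%, against 5.09% of all genes), and 65 to 88 with 1 array left out, since 3 arrays overlap less often by construction (51.6% to 69.8% of members, 53.6% to 69.8% of all genes). Under the remaining settings the count without overlap was 30 to 33. Differences of at least 0.2, with or without overlap, were found in 14.7% of dim members, against 13.6% of all genes at or below the median. Among bright members the share was 3.23%, against 2.6% of all genes above the median. Averaging the probe sets of each gene gave 20 members above the array median, and setting the members against the median of the brightest probe sets of all genes gave 15, both by construction. The remaining settings gave 28 to 31. Leaving out probe sets with the suffix x or s, and leaving out Il4i1 and Il1bos, were chosen after seeing the data. Averaging probe sets turned Il15ra to 0.0275 and Cd8a to 0.002. With 1 array left out, Socs3 lay between -0.005 and 0.405, Stat5a between -0.015 and 0.285, Cd3d between -0.02 and 0.29, Obp1a between -0.32 and 5.14, Bpifa1 between -0.175 and 4.215, and Cyp2g1 between -0.285 and 2.185. These are the 8 of 58 named genes with a difference larger than its SE that changed sign. Among all 107 named genes, 42 changed sign in at least 1 setting, 10 of them in a setting that kept all arrays. The lone array left in a group was assumed to vary like the other group, and the cause of the changes was not tested.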

Other observations

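Some chemokines were read only by probe sets that name several genes and so lay outside the rule. The probe set of the Ccl21 family, naming 9 genes of the lymphoid chemokine that binds Ccr7, measured 7.83 and 7.72 in knockout against 8.21 and 8.03 in wild type, a difference of -0.345 (SE 0.097). The probe set of the Ccl19 family, naming 10 genes of the other Ccr7 ligand, measured 6.84 and 6.83 in knockout against 6.47 and 6.55 in wild type, a difference of 0.325 (SE 0.073). The 2 ligands of this receptor thus lay on opposite sides of wild type, with no overlap in either, beside 28.3% of all genes without overlap. Both had a limma adjusted p of 1. They had the largest differences of 7 probe sets that name several genes with a symbol fitting the rule. The others of these lay between -0.075 and 0.11. Which copy each probe set reads cannot be told apart.

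Among the 74 member probe sets that were not the brightest of their gene, Il1rapl2 had 2 with little spread within either genotype. One measured 5.10 and 5.10 in knockout against 4.80 and 4.78 in wild type, a difference of 0.31 (SE 0.069). The other measured 3.40 and 3.43 in knockout against 3.02 and 2.98 in wild type, a difference of 0.415 (SE 0.070), with a limma adjusted p of 1. A dim probe set of Il16 differed by -0.25 (SE 0.080), with 5.75 and 5.79 in knockout against 5.96 and 6.08 in wild type. These were chosen after their values were seen.

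The list means of mural and meningeal markers also lay higher in both knockout mice than in both wild-type mice. Without overlap, 3 of 4 mural and 2 of 4 meningeal markers were higher, beside 15.5% of all genes. Rgs5, Dcn and Lum overlapped between genotypes. The 4 mural cell markers averaged 9.09 and 9.00 in knockout against 8.85 and 8.82 in wild type, and the 4 meningeal fibroblast markers 8.20 and 8.46 in knockout against 8.02 and 8.12 in wild type. The 3 pituitary markers averaged 6.49 and 6.93 in knockout against 6.29 and 6.43 in wild type. Only 1 of them, Gh at 0.71, was higher without overlap. The median difference was 0.055 for endothelial, 0.05 for astrocyte, 0.015 for oligodendrocyte and 0.04 for choroid plexus markers. Of the 4 astrocyte markers 1 was higher without overlap, Gfap. It measured 9.01 and 8.97 in knockout against 8.64 and 8.77 in wild type, a difference of 0.285 (SE 0.081). Aqp4, Slc1a3 and Aldh1l1 differed by 0.085, 0.005 and 0.015. The border macrophage markers were split, with a median of 0.13, 3 genes positive and 2 negative (Lyve1 at -0.395 and Cd163 at -0.15). Their list means were 5.89 and 6.26 in knockout against 5.97 and 6.19 in wild type. None of these genes passed the threshold in limma.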
